A study of Mus musculus with 5 samples.

Results

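The genes described here are 10 genes of the Notch pathway, chosen by name from the 54232 genes of the table: the receptors Notch1, Notch2 and Notch3, the ligands Dll1, Dll4, Jag1 and Jag2, and the transcriptional targets Hes1, Hey1 and Heyl. RNA was sequenced from primary mouse myoblasts, which are muscle precursor cells, taken from leg muscle with the magnetic beads of a satellite cell kit and beads against an integrin, and kept for 72 h in horse serum medium, in which they fuse into myotubes. The groups were WT (n = 3) and Elmo2EID/EID (n = 2), the latter carrying a knock-in, present in every tissue, that holds the ELMO2 protein in an open conformation. Both came from mice of a mixed C57BL6 and 129SV background, at 6 to 8 weeks of age. Primary cells in the study typically came from independent mice, but no source used here says so of these 5 samples, and p-values then measure only the spread between them. Recovered reads ranged from 35021856 to 49381544 per sample, at which 3 reads are 2.65 to 3.73 normalized counts, and the genes of differentiating muscle were abundant in all 5 samples, with summed levels of 7 myotube markers between 1223590 and 1488814 normalized counts.

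Notch receptors are single-pass membrane proteins that are cut after binding a Delta-like or Jagged ligand on a neighbouring cell, and the freed intracellular part enters the nucleus, where it joins RBPJ and Mastermind proteins and switches on genes of the Hes and Hey families. In skeletal muscle, Notch signalling is known for keeping satellite cells, the muscle stem cells, quiescent and undifferentiated. Notch3 and HeyL are known from satellite cells and also from the mural cells of blood vessels.

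Notch3 and Heyl stood lowest in Elmo2EID/EID myoblasts relative to WT, at 0.359 and 0.385 of their WT means, and the ligand Dll1 stood at 0.724 of its WT mean. Of the 10 genes, 1 passed the test across all genes, Notch3, which fell. Notch1, Notch2, Jag2 and Hes1 differed by -0.23 to -0.08 on the log2 scale and none of them passed. The test was that of limma on log2(normalized count + 1), with Benjamini-Hochberg (BH) adjustment over the 18156 genes that reached 5 normalized counts in 1 sample or more, and all 10 genes met this minimum. Of all tested genes, 2.23% passed in either direction and 1.14% passed as lower, as the background to 1 of 10. At an unadjusted p under 0.05 there were 3 of the 10 (Notch3, Heyl and Dll1), against 15.2% of all tested genes. The median difference of the 10 genes was -0.16 (log2), and that of all tested genes was 0.01. For 4 of the 10 genes no value of one group fell within the other, with Notch3, Heyl and Dll1 lower and Dll4 higher in Elmo2EID/EID, whereas 15.9% of all tested genes were lower and 16.7% higher without overlap. On the recovered reads, edgeR called 1 of the 10 genes lower, against 2.25% of all genes called in either direction, and DESeq2 called 3 lower (Notch3, Heyl and Dll1), against 5.56% of the genes to which it gave an adjusted p. RNA from whole cultures cannot tell fewer cells of a type from less RNA per cell.

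**Figure D1:**
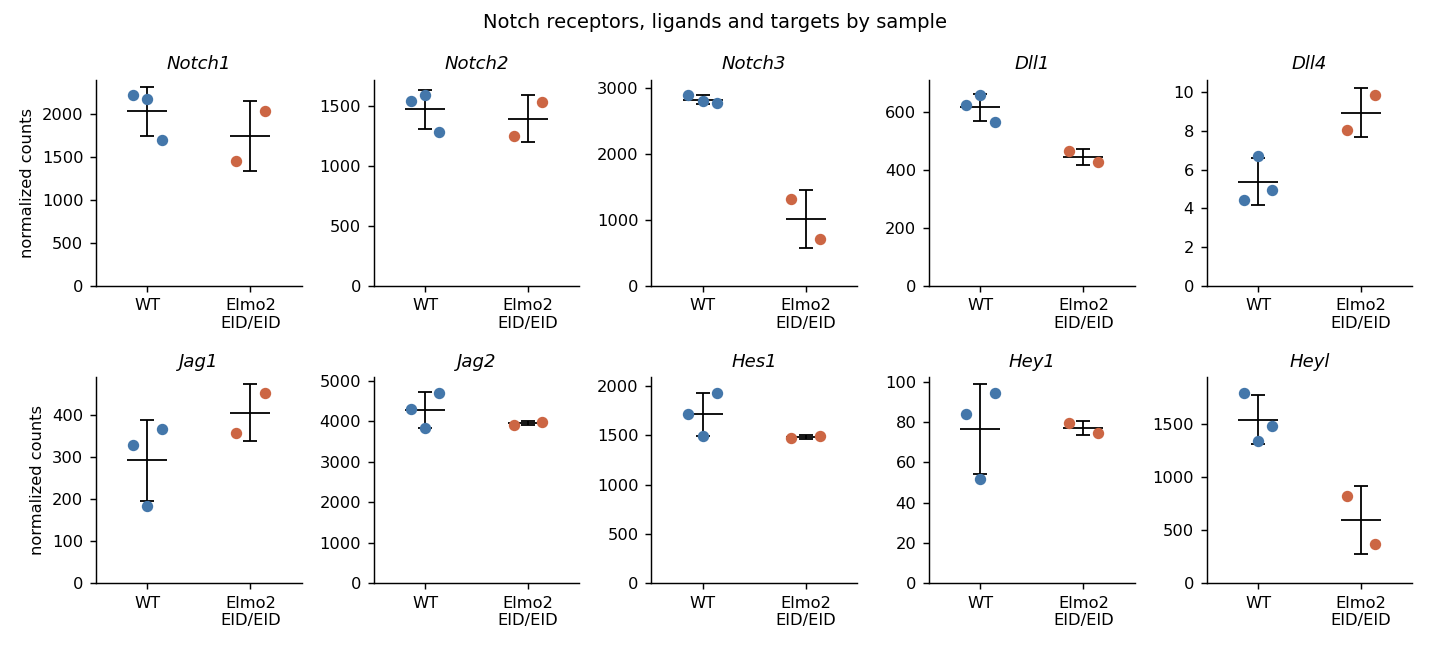
Normalized counts of the 10 genes (y axes, linear, starting at 0) in WT (blue) and Elmo2EID/EID (red) samples, with the mean and SD of each group as bars. Both Elmo2EID/EID samples lie below all WT samples for Notch3, Dll1 and Heyl and above them for Dll4, and the groups overlap in the other panels.

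The receptors Notch1, Notch2 and Notch3 share their domain plan and are encoded on different chromosomes. The 250 bases upstream of their annotated starts, from the RefSeq table of GRCm38.p6, are shown 5′ to 3′ on the strand of the gene because 1 of these paralogs fell and the others did not pass the test. Capitals mark the GC box GGGCGG, a site of SP-family factors, on either strand. The Notch1 stretch is chr2:26503823-26504072 (minus strand), next to a start that lies 12.6 kb inside the full span of the gene because another annotated transcript begins further upstream. The Notch2 stretch is chr3:98013288-98013537 (plus strand) and the Notch3 stretch is chr17:32166891-32167140 (minus strand).
Notch1: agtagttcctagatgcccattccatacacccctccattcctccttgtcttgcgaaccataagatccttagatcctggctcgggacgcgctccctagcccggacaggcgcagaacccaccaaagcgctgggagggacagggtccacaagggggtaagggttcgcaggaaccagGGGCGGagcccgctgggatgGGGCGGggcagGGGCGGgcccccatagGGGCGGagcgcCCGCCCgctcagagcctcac
Notch2: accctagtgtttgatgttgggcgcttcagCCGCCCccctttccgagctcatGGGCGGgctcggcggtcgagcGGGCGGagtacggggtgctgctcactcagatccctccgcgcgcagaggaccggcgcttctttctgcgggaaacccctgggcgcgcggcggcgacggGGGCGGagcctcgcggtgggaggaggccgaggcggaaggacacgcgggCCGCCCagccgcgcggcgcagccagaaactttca
Notch3: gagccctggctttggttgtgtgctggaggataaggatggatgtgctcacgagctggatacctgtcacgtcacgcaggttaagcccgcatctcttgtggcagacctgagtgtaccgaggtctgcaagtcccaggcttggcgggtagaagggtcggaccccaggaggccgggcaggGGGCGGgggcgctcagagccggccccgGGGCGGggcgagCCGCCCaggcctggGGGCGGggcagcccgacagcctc
The stretches hold 5, 5 and 4 GC boxes and have 66.0%, 72.0% and 68.8% G and C. Over the 8 promoters that the table gives for 7 of the 10 genes, 5 hold a GC box, against 32.7% of 32851 promoters of the same length, and none holds TGGGAA, the core of the RBPJ site, its longer form GTGGGAA or the E-box CACGTG, each searched on both strands. These letters occur in 21.6%, 5.42% and 6.02% of all promoters, and the core lies within the longer form. Hes1, Hey1 and Heyl were not matched.

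Notch3 (ENSMUSG00000038146, chr17:32120820-32166852, minus strand) had 2887, 2801 and 2768 normalized counts in WT and 1319 and 702.8 in Elmo2EID/EID. The WT samples lay close together and both Elmo2EID/EID samples were below them, replicate 2 further than replicate 1. The means were 2819 ± 61.5 (SD, n = 3) and 1011 ± 436 (SD, n = 2), a log2 fold change of -1.55 (standard error 0.23, 95% confidence interval -2.10 to -0.99), with a BH-adjusted p of 0.028 in limma. The adjusted p was 0.0294 with edgeR and 1.1e-08 with DESeq2, and over all alternatives it ranged from 1.1e-08 to 0.148, 11 of 16 alternatives passing. In limma after BH adjustment, the call was lost without WT replicate 1 (adjusted p = 0.118), WT replicate 2 (0.0833) or WT replicate 3 (0.0643), without a filter on low values (0.119) and without the mean-variance trend (0.148). Without Elmo2EID/EID replicate 1 or 2 the adjusted p was 0.00685 and 0.0339, but in all fits that leave out one of these, here and for other genes, a lone Elmo2EID/EID sample stands for its group and is assumed to vary like the WT samples, so that a pass there has no replicate support. The log2 fold change was between -2.00 and -1.09 with samples left out in turn. An antisense gene, Gm17276, overlaps Notch3 and had 6.26 to 12.34 normalized counts across the samples, and the counting used strand.

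Notch1 (ENSMUSG00000026923, chr2:26457903-26516663, minus strand), the receptor known for holding satellite cells in an undifferentiated state, had 2223, 2173 and 1698 normalized counts in WT and 1457 and 2038 in Elmo2EID/EID samples. The groups overlapped, with Elmo2EID/EID replicate 2 between WT values. The log2 fold change was -0.23 (standard error 0.17, 95% interval -0.64 to 0.18, BH-adjusted p = 0.601 in limma).

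Notch2 (ENSMUSG00000027878, chr3:98013527-98150361, plus strand), another receptor of satellite cells, had 1539, 1591 and 1285 normalized counts in WT and 1253 and 1534 in Elmo2EID/EID samples. These groups overlapped too. On the log2 scale the difference was -0.08 (standard error 0.13, 95% interval -0.38 to 0.22, BH-adjusted p = 0.825 in limma). The intervals of Notch1 and Notch2 do not reach that of Notch3, and the difference between the receptors was not tested by itself.

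The makeup of the receptor RNA is given per kilobase of merged exons, where the 4 receptors Notch1 to Notch4 sum to 100% in each sample. Notch3 took 53.7%, 53.3% and 58.3% of this sum in the WT samples and 41.0% and 21.9% in Elmo2EID/EID. In the same order, Notch1 took 20.3% to 23.5% and then 25.7% and 36.1%, and Notch2 took 20.3% to 22.7% and then 29.2% and 35.9%. Notch3 was the leading receptor in 4 of the 5 samples and was below Notch1 and Notch2 in Elmo2EID/EID replicate 2. Shares within a sum are tied to each other, and their differences were not tested.

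Heyl (ENSMUSG00000032744, chr4:123233556-123249875, plus strand), a basic helix-loop-helix repressor of the Hey family and a Notch target, had 1789, 1338 and 1478 normalized counts in WT and 817.4 and 365.8 in Elmo2EID/EID. Both Elmo2EID/EID samples were below every WT sample, and replicate 2 was again the lower, as for Notch3. The means were 1535 ± 231 (SD, n = 3) and 591.6 ± 319 (SD, n = 2), a log2 fold change of -1.48 (standard error 0.31, 95% interval -2.22 to -0.73), and a BH-adjusted p of 0.0739 in limma missed the threshold of 0.05. DESeq2 called Heyl (adjusted p = 0.0348) and edgeR did not (0.0835). In limma after BH adjustment the single Elmo2EID/EID replicate 2 against WT gave a log2 fold change of -2.06 (adjusted p = 0.0382) and the single replicate 1 gave -0.90 (0.231), each with the spread of the WT samples alone.

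The course of Heyl across the 5 samples was among those most like that of Notch3. Likeness was the root mean square distance between mean-centred log2 values over the 5 samples, for the 12297 genes whose mean reached 50 normalized counts, and by this measure the 5 nearest genes were Ahcy (distance 0.088), Cd80 (0.089), Gper1 (0.112), Epha1 (0.123) and Heyl (0.147). Ahcy, the hydrolase of S-adenosylhomocysteine, had 1946, 1862 and 1733 normalized counts in WT and 991.8 and 458.1 in Elmo2EID/EID samples. It lies on the chromosome of Elmo2 (chr2:155059310-155074497), between Jag1 and Elmo2, and the part of linkage to the knock-in was not tested. Cd80, a co-stimulatory ligand of T cells, had 180.2, 182.8 and 200.1, then 95.69 and 49.31. In both genes, as in Notch3, Elmo2EID/EID replicate 2 was lowest and replicate 1 lay between it and the WT samples. The distance uses the same 5 samples as the comparison of the groups, so it describes these samples and adds no test.

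Hes1 (ENSMUSG00000022528, chr16:30064384-30067796, plus strand), the repressor used most often as a readout of Notch activity, had 1717, 1493 and 1933 normalized counts in WT and 1473 and 1495 in Elmo2EID/EID samples. Elmo2EID/EID replicate 2 was level with WT replicate 2, so the groups overlapped. Its log2 fold change was -0.20 (standard error 0.11, 95% interval -0.46 to 0.06, BH-adjusted p = 0.461 in limma).

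Hey1 (ENSMUSG00000040289, chr3:8663359-8667256, minus strand), a close relative of HeyL, was far less abundant, with 83.94, 51.6 and 94.47 normalized counts in WT and 79.6 and 74.41 in Elmo2EID/EID samples. Both Elmo2EID/EID values lay within the WT range. The log2 fold change was 0.05 (standard error 0.28, 95% interval -0.63 to 0.73, BH-adjusted p = 0.956 in limma), and changes of either sign within this interval were not detectable at this spread. Without WT replicate 2 the value was -0.21.

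Dll1 (ENSMUSG00000014773, chr17:15367354-15376872, minus strand), the Delta-like ligand known from differentiating myogenic cells, had 623.8, 658.4 and 564.4 normalized counts in WT and 465.1 and 425.8 in Elmo2EID/EID samples. Both Elmo2EID/EID samples were below every WT sample. The means were 615.5 ± 47.6 (SD, n = 3) and 445.4 ± 27.7 (SD, n = 2), a log2 fold change of -0.46 (standard error 0.10, 95% interval -0.71 to -0.22), with a BH-adjusted p of 0.0828 in limma, above the threshold. The adjusted p was 0.079 with edgeR and 0.0145 with DESeq2, which called it, and the log2 fold change stayed between -0.53 and -0.40 when samples were left out in turn.

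Jag2 (ENSMUSG00000002799, chr12:112907819-112929776, minus strand), a Jagged ligand, was the most abundant of the 4 ligands, with 4313, 3822 and 4703 normalized counts in WT and 3915 and 3983 in Elmo2EID/EID samples. Both Elmo2EID/EID values lay within the WT range. Its log2 fold change was -0.11 (standard error 0.09, 95% interval -0.33 to 0.11, BH-adjusted p = 0.647 in limma).

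Jag1 (ENSMUSG00000027276, chr2:137081456-137116644, minus strand), the other Jagged ligand, had 328.7, 182.8 and 365.5 normalized counts in WT and 356.8 and 452.7 in Elmo2EID/EID samples. WT replicate 2 was low and the groups overlapped. On the log2 scale Jag1 differed by 0.52 (standard error 0.30, 95% interval -0.18 to 1.22, BH-adjusted p = 0.472 in limma), and by 0.21 without WT replicate 2.

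Dll4 (ENSMUSG00000027314, chr2:119325784-119335962, plus strand), a Delta-like ligand best known from endothelial cells, was near the limit of detection with 4.418, 6.73 and 4.972 normalized counts in WT and 8.049 and 9.861 in Elmo2EID/EID samples, which are 4 to 11 reads. Both Elmo2EID/EID samples were above every WT sample, by a few reads. The log2 fold change of 0.65 (standard error 0.41, 95% interval -0.32 to 1.63) did not pass, with a BH-adjusted p of 0.517 in limma.

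**Figure D2:**
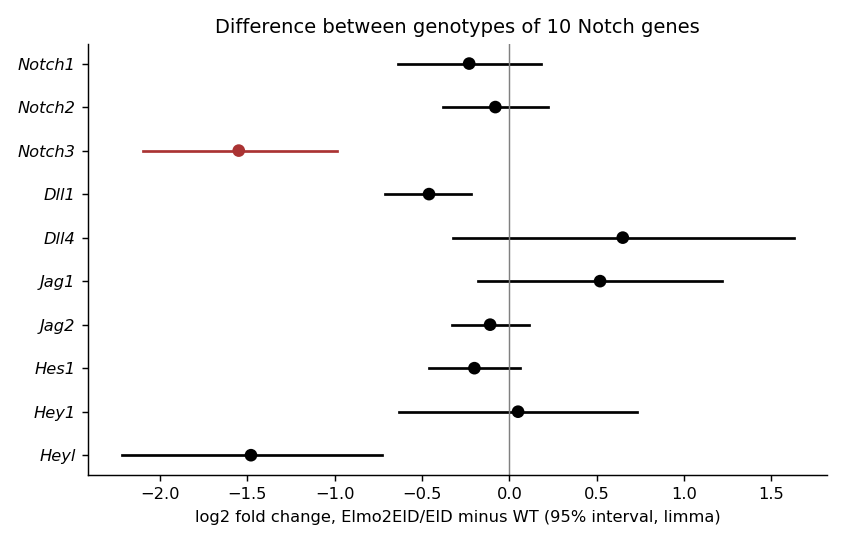
Log2 fold change of Elmo2EID/EID over WT (x axis) for the 10 genes (y axis), with 95% confidence intervals from limma as bars. The intervals of Notch3, Heyl and Dll1 lie below 0, and Notch3 is the gene with an adjusted p under 0.05.

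Levels of different genes were set side by side as normalized counts per kilobase of merged exons. In WT the order was Hes1 (mean 842), Jag2 (614), Notch3 (348), Heyl (300), Dll1 (146), Notch1 (143), Notch2 (136), Jag1 (50.2), Hey1 (23.5) and Dll4 (1.39). The WT ranges of neighbours overlapped for Notch3 and Heyl (342 to 357 and 262 to 350) and for Dll1, Notch1 and Notch2, and did not overlap between the other neighbours. In Elmo2EID/EID samples Hes1 (729) and Jag2 (567) again led. The means of Notch3 (125) and Heyl (116) stood among those of Notch2 (129), Notch1 (123) and Dll1 (106), which held in neither sample alone. In replicate 1 Notch3 (163) and Heyl (160) were above Notch2 (116), Dll1 (110) and Notch1 (102). In replicate 2 Notch3 (86.9) and Heyl (71.5) were below Notch1 (143), Notch2 (142) and Dll1 (101). Per length, Jag2 took 74.3% to 77.3% of the summed RNA of the ligands Dll1, Dll3, Dll4, Jag1 and Jag2 in all 5 samples, and Dll1 took 15.3% to 21.1% in WT and 15.0% and 13.4% in Elmo2EID/EID.

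**Figure D3:**
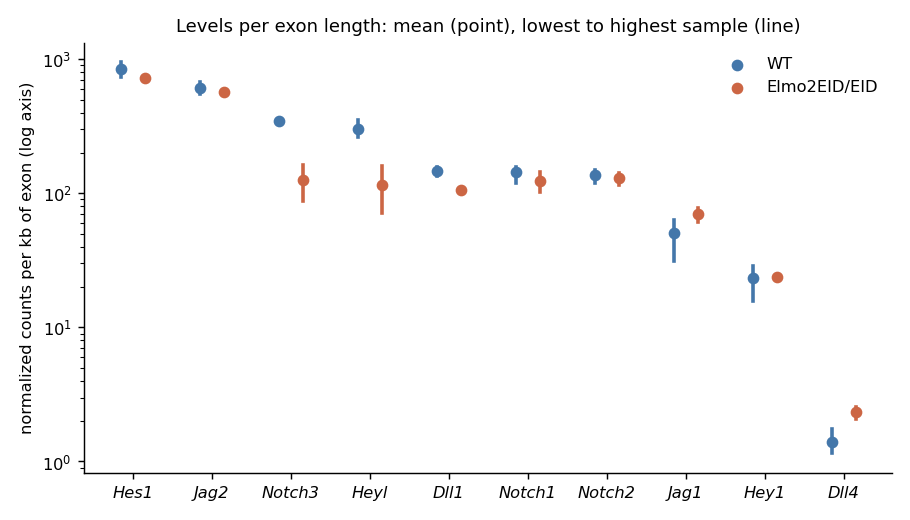
Normalized counts per kilobase of merged exons (log axis) of the 10 genes, as the mean (point) and the range from the lowest to the highest sample (line), WT in blue and Elmo2EID/EID in red. Notch3 and Heyl have means of 348 and 300 in WT, above those of Dll1, Notch1 and Notch2. In Elmo2EID/EID their means are 125 and 116, among those of the same genes, with lines from 86.9 to 163 and from 71.5 to 160.

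Beyond the 10 genes, 49 further genes of the pathway were listed by role, of which 45 were tested, and Dll3, Dtx1, Hes5 and Hes7 were below the minimum. Of the 45, limma after BH adjustment called 2 lower and none higher, beside 1.14% of all tested genes lower and 2.23% in either direction, with 22 differences above 0, 23 below 0 and a median of 0.00 (log2). At an unadjusted p under 0.05 there were 3 higher and 3 lower, beside 15.2% of all tested genes in either direction. On the recovered reads edgeR called 2 lower (2.25% of all genes in either direction), and DESeq2 called 1 higher and 2 lower (5.56%). Without overlap, 11 of the 45 were higher and 5 were lower, beside 16.7% and 15.9% of all tested genes.

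Dtx4 (ENSMUSG00000039982, chr19:12466338-12501454), a Deltex-family E3 ubiquitin ligase that acts on Notch receptors, had 954.2, 837.9 and 643.9 normalized counts in WT and 382.8 and 311.1 in Elmo2EID/EID samples, with no overlap. It fell to 0.427 of its WT mean, a log2 fold change of -1.21 (standard error 0.18, BH-adjusted p = 0.0257 in limma). This call was lost without WT replicate 1 (BH-adjusted p = 0.09 in limma), WT replicate 2 (0.0837), Elmo2EID/EID replicate 1 (0.132) or replicate 2 (0.272), and without the filter (0.107) or the trend (0.137).

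Hdac1 (ENSMUSG00000028800, chr4:129516104-129542713), a histone deacetylase found in the repressor complexes of RBPJ and in many others, had 1066, 975.9 and 965.9 normalized counts in WT and 601 and 589.9 in Elmo2EID/EID samples, with no overlap. It fell to 0.594 of its WT mean, a log2 fold change of -0.75 (standard error 0.08, BH-adjusted p = 0.00759 in limma). The call was lost without Elmo2EID/EID replicate 1 (BH-adjusted p = 0.0807 in limma) or replicate 2 (0.118) and without the trend (0.0598).

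The role groups held these changes in receptor turnover (1 lower of 8 tested, median log2 -0.07), where Dtx4 belongs, and in the nuclear complex (1 lower of 10, median 0.02), where Hdac1 belongs. No gene was called by limma after BH adjustment among the 10 genes of receptor cleavage (median -0.07, 1 at an unadjusted p under 0.05, 0 by edgeR and 0 by DESeq2), the 9 genes of glycosylation and ligand endocytosis (median 0.04, 0 at an unadjusted p under 0.05, 0 by edgeR and 0 by DESeq2) or the 3 other targets (median -0.07, likewise 0, 0 and 0). In these groups the gene that differed most, among those whose mean reached 50 normalized counts, was Aph1c, a subunit of gamma-secretase (log2 fold change -0.64, standard error 0.30), Lfng, the Fringe glycosyltransferase (0.24, standard error 0.46), and Nrarp, a Notch-induced feedback inhibitor (-0.07, standard error 0.30). Their adjusted p were 0.391, 0.858 and 0.938 in limma after BH adjustment.

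Among the 5 other receptors and ligands that were tested (median log2 0.41, none called by limma or edgeR, 1 at an unadjusted p under 0.05, 1 by DESeq2), Notch4 differed most. Notch4 (ENSMUSG00000015468, chr17:34564268-34588503), a receptor best known from endothelial cells, had 71.57, 28.04 and 53.45 normalized counts in WT and 131.5 and 193.6 in Elmo2EID/EID samples. Both Elmo2EID/EID samples were above every WT sample, with means of 51.02 ± 21.9 (SD, n = 3) and 162.6 ± 44.0 (SD, n = 2). This is a log2 fold change of 1.72 (standard error 0.40), with a BH-adjusted p of 0.0913 in limma, 0.0764 from edgeR and 0.00226 from DESeq2. On the per-length scale Notch4 made up 0.535% to 1.34% of the receptor RNA in WT and 4.1% and 6.06% in Elmo2EID/EID.

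**Figure D4:**
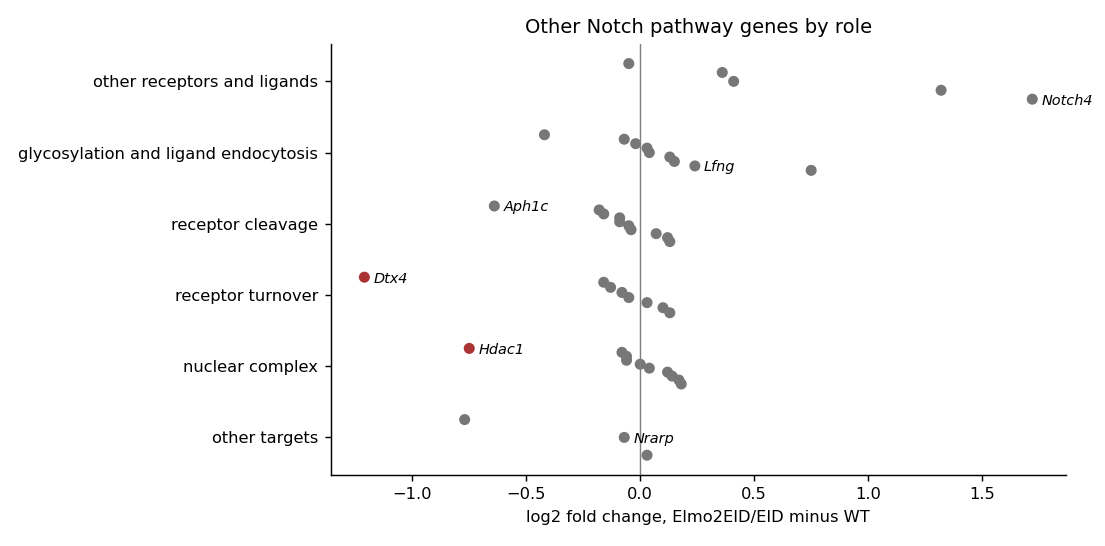
Log2 fold change of Elmo2EID/EID over WT (x axis) of the tested further pathway genes, grouped by role (y axis), 1 point per gene. Dtx4 (-1.21) and Hdac1 (-0.75) are the genes called lower, and Notch4 (1.72) lies furthest to the right without being called.

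Markers of the cells in which these genes are known were read in the same samples. Of 6 satellite cell markers, 5 were tested and 1 was called, Pax7, the transcription factor of satellite cells, at 922.4, 942.2 and 836.6 normalized counts in WT and 414.1 and 297.6 in Elmo2EID/EID samples. Pax7 fell by 1.35 on the log2 scale (standard error 0.15, BH-adjusted p = 0.00764 in limma), a call lost without WT replicate 1 (0.0506) or Elmo2EID/EID replicate 2 (0.0711) and in limma without the mean-variance trend (0.076). Myf5, a myogenic determination factor, stood the other way without overlap, with WT values of 3122, 2188 and 4399 and Elmo2EID/EID values of 5152 and 5254 normalized counts (log2 0.74, standard error 0.26, BH-adjusted p = 0.237 in limma). Over the list, 1 marker was higher and 2 were lower both without overlap and at an unadjusted p under 0.05, beside 16.7% and 15.9% of all tested genes without overlap and 15.2% at that p in either direction. On the recovered reads edgeR called 1 lower, and DESeq2 called 2 lower, Pax7 and Spry1 (a feedback inhibitor of receptor tyrosine kinase signalling), against 2.25% and 5.56% of all genes in either direction and 1.14% called lower by limma. The summed level of the list was 11333 to 15499 in WT and 12580 to 14250 in Elmo2EID/EID. Most of this sum came from the markers Sdc4 (4845 to 6929 across the samples), Myf5 and Spry1, so it shows little of the course of Pax7. Calcr, a marker of quiescent satellite cells, was at or under 3 reads in every sample.

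Of 7 mural markers, 5 were tested and 1 was called, Rgs5, a pericyte gene, at 125.5, 65.06 and 90.74 normalized counts in WT and 9.838 and 11.65 in Elmo2EID/EID samples. Rgs5 fell by 2.97 on the log2 scale (standard error 0.32, BH-adjusted p = 0.00759 in limma), a call lost without Elmo2EID/EID replicate 1 (0.102) or replicate 2 (0.12) and in limma without the trend (0.0516). Myh11, the smooth muscle myosin, and Cspg4, a proteoglycan of pericytes, stood the other way without overlap (log2 1.42 and 0.39, BH-adjusted p = 0.25 and 0.264 in limma). Of the mural list, 2 markers were higher and 1 was lower both without overlap and at an unadjusted p under 0.05, against the same shares of all genes, and edgeR and DESeq2 each called 1 lower. Of the other markers that define mural cells, Kcnj8 and Higd1b were at or under 3 reads in every sample, and the summed level of the list was 8220 to 9931 in WT and 8696 to 9253 in Elmo2EID/EID. More than any other marker, Abcc9, a potassium channel subunit, made up this sum, and without it the sums were 2397 to 3992 in WT and 3400 to 3552 in Elmo2EID/EID. Most of what remained was Cspg4 (1821 to 2746 across the samples). The mural marker Pdgfrb had 1278, 487.9 and 757 normalized counts in WT and 664.5 and 606 in Elmo2EID/EID. Its groups overlapped (log2 -0.30, BH-adjusted p = 0.762 in limma). The part of satellite or mural cells in the difference of Notch3 and Heyl was not tested.

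All 12 endothelial markers were tested, and 11 stood above every WT sample in both Elmo2EID/EID samples, beside 16.7% of all tested genes, with a summed level of 333.1 to 1257 normalized counts in WT and 3093 to 4589 in Elmo2EID/EID. The exception was Cldn5, at 2 to 7 reads, and the median log2 difference was 2.51. Limma after BH adjustment called 0 of the 12, with 9 at an unadjusted p under 0.05, 1 called by edgeR and 5 by DESeq2, where the shares of all genes were 2.23%, 15.2%, 2.25% and 5.56% in that order. Without WT replicate 2 it called 4 higher (Pecam1, Cdh5, Flt1 and Emcn), at a median of 1.63, and without WT replicate 3 it called 1, Flt1. The lowest sum, 333.1, was that of WT replicate 2, which also had the lowest level of Jag1, Jag2, Hey1 and Notch4 among all samples. Among the WT samples, 5 of the 10 genes were lowest in replicate 2, 4 in replicate 3 and 1 in replicate 1. Dll4 was highest of the WT samples in replicate 2. Endothelial cells are among those that a magnetic selection for satellite cells is meant to remove, and the part of endothelial RNA in the values of Notch4, Dll4, Jag1 and Hey1 was not tested.

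**Figure D5:**
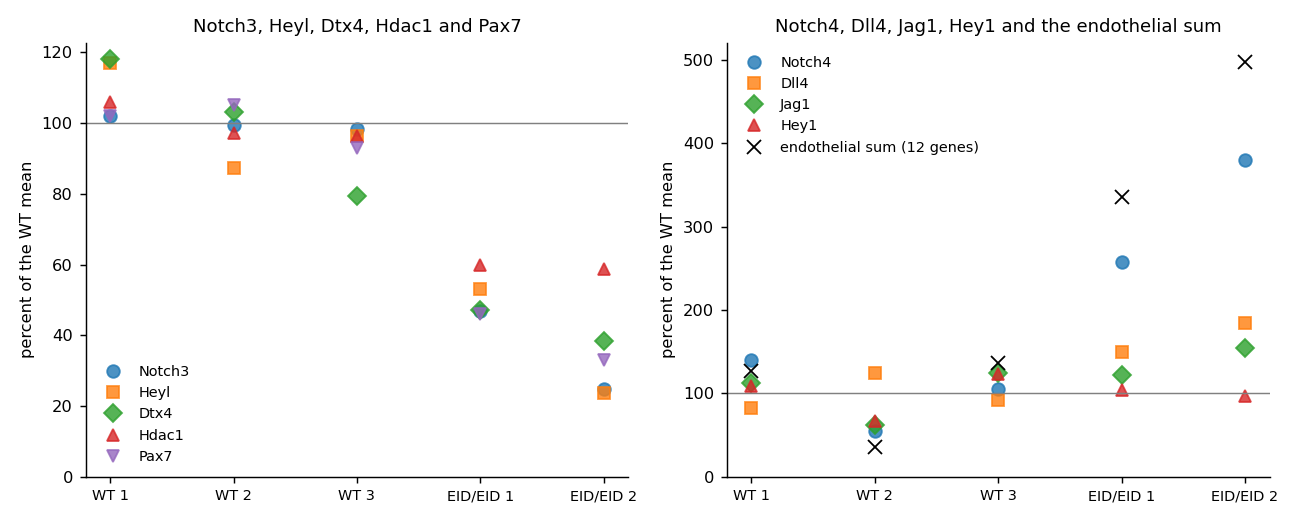
Level in each sample (x axis) as a percent of the WT mean of the same gene (y axes, linear, from 0, line at the WT mean), for Notch3, Heyl, Dtx4, Hdac1 and Pax7 (left) and for Notch4, Dll4, Jag1, Hey1 and the sum of 12 endothelial markers (right). On the left every gene is lower in both Elmo2EID/EID samples, with Notch3 at 46.8% and 24.9% and Heyl at 53.2% and 23.8%, and on the right the endothelial sum is lowest in WT replicate 2 and highest in Elmo2EID/EID replicate 2.

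For the markers of other cells, limma after BH adjustment called 0 of the tested genes in each list. With a replicate block the Schwann marker Ngfr passed (BH-adjusted p = 0.0167 in limma). The 8 cycling markers had a median log2 difference of -0.37 (3 at an unadjusted p under 0.05, 0 by edgeR, 0 by DESeq2, against 15.2%, 2.25% and 5.56% of all genes for these and the next lists) and summed to 2628 to 3783 in WT and 2521 to 2703 in Elmo2EID/EID. All 8 cycling markers differed in the lower direction. Without overlap 4 of them were lower and 0 higher, beside 15.9% and 16.7% of all tested genes. Without WT replicate 3, limma called 1 of the cycling markers lower. In the same order of counts, the 6 tested of 7 Schwann markers had a median of 1.01 (1, 0 and 0), the 5 of 6 fibro-adipogenic markers 1.42 (2, 0 and 0), the 4 of 5 macrophage markers 0.56 (1, 0 and 0) and the 7 myotube markers 0.00 (0, 0 and 0). Gfap, Lum and Ptprc, the markers of these lists that were not tested, were at or under 3 reads in every sample. WT replicate 2 stood apart in the fibro-adipogenic sum, at 215.3 against 1154 to 1488 in the other samples, and without it the fibro-adipogenic median was 0.14 and the Schwann median 0.62. The macrophage median was -1.09 without Elmo2EID/EID replicate 1 and 1.74 without replicate 2. The summed levels of the groups overlapped for the fibro-adipogenic, macrophage and myotube lists, and the Schwann sum was 16168 to 17089 in WT and 15548 to 15920 in Elmo2EID/EID. Most of the Schwann sum was Erbb3, and without it the sums were 172.7 to 666.3 in WT and 480.5 to 748.6 in Elmo2EID/EID and overlapped. Their part in the levels of the 10 genes was not tested.

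The positions of the genes were also compared, because the mice were of mixed strain background. Notch1, Dll4 and Jag1 are on chromosome 2, which also carries Elmo2, at 138.8, 46.0 and 28.2 Mb from it, and the other 7 genes are on other chromosomes. Within 1 Mb of Notch3, 32 genes were tested, and limma after BH adjustment called 0 of them, with 1 at an unadjusted p under 0.05 and 0 called by DESeq2. Within 1 Mb of Heyl, limma called 1 of 25 tested genes higher and 1 lower, beside 2.23% of all tested genes in either direction. At an unadjusted p under 0.05 there were 4 (15.2% of all genes), and DESeq2 called 3 (5.56% of all genes with an adjusted p). The higher one was Gm12901, a processed pseudogene 8.2 kb away that was named after its values were seen, listed at 0 in each WT sample, with Elmo2EID/EID values of 14.31 and 10.76 normalized counts. Its reads could be shared with a near-identical parent gene, and its call was lost with edgeR (adjusted p = 0.0514) and in limma after BH adjustment without WT replicate 1 (0.0725), WT replicate 2 (0.0587), Elmo2EID/EID replicate 1 (0.11) or replicate 2 (0.118). The lower one was Ndufs5, a subunit of respiratory complex I that lies 462.8 kb away and was named after its values were seen. It had 1353, 1307 and 1413 normalized counts in WT and 137.7 and 113.9 in Elmo2EID/EID samples. Its log2 fold change was -3.43 (standard error 0.11, BH-adjusted p = 5.9e-05 in limma). This call was kept with edgeR (adjusted p = 2.8e-05), and in limma with a replicate block (0.00219) or without any 1 WT sample (6.6e-04 to 0.00138). Near the remaining genes limma called 1 gene higher within 1 Mb of Dll1 (Eif3s6-ps3), 1 lower near Dll4 (Disp2) and 1 higher near Hey1 (Gm5841), all named after their values were seen. The call of Eif3s6-ps3 was lost with edgeR (adjusted p = 0.0784), those of Eif3s6-ps3 and Gm5841 were lost whichever sample was left out (adjusted p 0.0693 to 0.211 and 0.0672 to 0.231 in limma), and that of Disp2 was lost without Elmo2EID/EID replicate 2 (0.0632). At an unadjusted p under 0.05 there were 12 of 46 genes near Dll4 and 9 of 35 near Jag2, and 3 or fewer near each of the other 6. DESeq2 called 3 genes near Dll4, 2 near Hey1 and 1 or fewer near each of Notch1, Notch2, Dll1, Jag1, Jag2 and Hes1. Hdac1 and Pax7, called lower above, also lie on chromosome 4, beyond Heyl and Ndufs5, with starts at 129516104 and 139737062. The pathway genes Spen and Mib2 lie on the same chromosome, at 141467890 and 155654677, and were not called. The part of strain differences at these loci was not tested.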

How the data were processed

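RNA sequencing of WT (n = 3) and Elmo2EID/EID (n = 2) myoblasts was used, with groups from the sample titles. The authors enriched poly-A RNA, aligned reads to GRCm38 with STAR 2.5.1b, counted unique reads per gene by strand with featureCounts 1.4.6 (Ensembl annotation) and deposited 1 signal value for each gene and sample, which is the count over a DESeq2 1.34.0 size factor. Versions are those of the submitters' processing notes. Dividing by the smallest positive value of a sample gave whole reads, within 0.01 of a read, for 100.0% of positive values, and the recovered totals (35021856 to 49381544 reads) set the counting error.

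Differences are Elmo2EID/EID minus WT of log2(normalized count + 1), which understates changes of low genes. They were tested two-sided with limma 3.58.1 (lmFit and eBayes with trend) over 18156 genes reaching 5 normalized counts in 1 sample or more (Benjamini-Hochberg adjustment, threshold 0.05). Alternatives were pseudocounts of 0.5 and 5, other filters, limma after quantile normalization, scaling to equal totals or TMM scaling, edgeR 4.0.16 and DESeq2 1.42.0 on the recovered reads, limma without trend, a replicate block and leaving out each sample. The tests were tried on simulated data first. R 4.3.3, Python 3.11.15 and pandas 2.3.3 were used.

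The 10 genes, the gene lists and the cell markers were chosen with earlier results of these data known. Of the further pathway genes, those called and, in each role group, the one that differed most with a mean reaching 50 normalized counts were named, with the 5 genes nearest to Notch3, genes called within 1 Mb of a called member (Notch3 had none) and markers of cells in which a member is known. Names, positions and exon lengths came from GENCODE M21 on GRCm38, which matched 54165 of 54232 identifiers, and promoters from RefSeq (GRCm38.p6).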

Additional observations from a re-analysis of the deposited data

How the results depend on the processing

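Of 404 genes called among all genes, 1 of the 10 Notch genes and 2 of the further pathway genes, the counts were 155, 0 and 1 without a filter on low values, and 144, 0 and 0 in limma without trend. DESeq2 called 961 genes and 3 of the Notch genes. Leaving out each sample in turn gave 34 to 335 genes, 0 to 2 Notch genes and 0 to 2 pathway genes, a lone Elmo2EID/EID sample being assumed to vary like WT. The replicate numbers are shared only as numbers: over 16657 genes the deviations of same-numbered samples had a correlation of -0.148. A replicate block gave 224 genes and 2 Notch genes, Notch3 and Heyl. In limma with this block Myf5 (log2 fold change 0.99, adjusted p = 0.049), Flt1 (0.029) and Ngfr (0.0167) passed. The calls of Gm12901 (adjusted p = 0.0911), Gm5841 (0.127), Eif3s6-ps3 (0.133), Gper1 (0.0691) and Epha1 (0.0528) were lost. With the numbers crossed, an alternative chosen after seeing the data, 1041 genes, 3 Notch genes and 4 pathway genes passed. The other pseudocounts, the stricter filter, quantile normalization, equal totals, TMM scaling and edgeR kept each of the 3 counts within 1.5 times. The sign turned for genes that were not called. Leaving out samples in turn moved the log2 fold change of Notch1 from -0.47 to 0.01 (above 0 without Elmo2EID/EID replicate 1), Notch2 from -0.23 to 0.07 (likewise), Hey1 from -0.21 to 0.22 and Lfng from -0.24 to 0.52 (both below 0 without WT replicate 2), and Nrarp from -0.44 to 0.29 (above 0 without WT replicate 3 or Elmo2EID/EID replicate 2), and Nrarp was 0.06 with the replicate block and with the numbers crossed. The cause was not tested. Depth limits Dll4, at 4 to 11 reads.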

Other observations

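Dlk1, a non-canonical Delta-like ligand of myogenic cells that was named after its values were seen, had 1189, 459.9 and 356.8 normalized counts in WT and 728 and 2905 in Elmo2EID/EID samples. The samples of each group spread widely and the groups overlapped, with Elmo2EID/EID replicate 2 above the others. The log2 fold change of 1.32 (standard error 0.68, Benjamini-Hochberg adjusted p = 0.419 in limma) did not pass. It ranged from 0.33 to 2.32 with samples left out in turn. Rbpj, the DNA-binding partner of the Notch intracellular part, had 1881, 1638 and 2088 normalized counts in WT and 1948 and 2084 in Elmo2EID/EID samples, and was also named after its values were seen. The groups overlapped, with a Benjamini-Hochberg adjusted p of 0.687 in limma. Hes5, a Notch target in neural cells, was at 0 in all 5 samples.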
